A study of Mus musculus with 4 samples.

Results

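The 34 genes described here encode the enzymes of glycolysis, the transporters that carry glucose into cells and lactate across the membrane, regulators of the pathway, and transcripts known to rise when oxygen is low. They were chosen by symbol: each was a row of at least 1 of the 4 deposited tables, which together listed 33219 genes. Of the 34 genes, 33 were listed in all 4 tables, and Pdk1 was not listed in that of tumour 3. The tables came from 4 end-point medulloblastomas of the sonic hedgehog subgroup, a cerebellar tumour of the granule neuron lineage, in Ptch1+/- mice that had been irradiated at birth and had no further treatment. All 4 tumours formed a single group from Ptch1+/- mice, so every comparison was between cell classes within these tumours. Whether the tumour cells kept that genotype is not stated in the labels. No normal cerebellum, wild-type mouse or unirradiated mouse entered, and no age is stated. Tumours are numbered 1 to 4 by the replicate in their labels. The labels do not state separately that each tumour came from a different mouse, so p-values measure only the spread between these 4 samples. Cells had been stored frozen as suspensions, thawed, sorted as live by dye exclusion and captured in droplets on the 10x Genomics platform, which counts each captured transcript once through its molecular identifier (UMI).

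Glycolysis splits glucose into pyruvate, which lactate dehydrogenase converts to lactate or which enters mitochondria. Several steps are served by more than one gene, and the choice among them differs between cell types: Ldha and Hk2 are known from proliferating cells, Ldhb and Hk1 from neurons, and Aldoc from astrocytes. When oxygen falls, prolyl hydroxylases (the Egln genes) stop marking the Hif1a protein for destruction. The stabilised factor binds DNA at a short motif, often with the core ACGTG. It raises many glycolytic genes as well as Vegfa, Bnip3, Ankrd37 and Ndrg1. In developing cerebellum, granule neuron progenitors under sonic hedgehog are known for Hk2-driven glycolysis that declines as they differentiate.

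The 6509 deposited cells held 10458431 to 23439893 UMIs per tumour, with a median of 15283.5 UMIs per cell in tumour 1 and 6799 to 7825 in the others. Doublet calling marked 0.307% of cells, too few to rely on. Whether doublets had been removed before deposit is not stated, and they may remain among the 6489 cells analysed, and 17 cell barcodes occurred in more than 1 library. Cells were clustered without the 34 genes and named by marker genes, and each class name carries "-like" since only transcripts define it. Progenitor-like cells, which join granule progenitor-like, mixed-phase and cycling-like clusters, numbered 473, 1933, 960 and 480 in tumours 1 to 4, and their summed granule progenitor markers stood at 1780.2 to 3964 CPM (the usual depth-scaled count, a gene's UMIs relative to all UMIs of the class in that tumour). Neuron-like cells numbered 42, 403, 125 and 57, with neuron markers at 2130.1 to 4345 CPM against 373 to 873 CPM in progenitor-like cells, and they still held progenitor markers at 952 to 1993 CPM. Myeloid-like cells numbered 82, 123, 12 and 464. The progenitor-like cells of tumour 4 carried myeloid markers at 883 CPM and neutrophil markers at 655 CPM, against 29.7 to 261 and 6.72 to 99.7 CPM in the other tumours. UMIs of 17 of 17 myeloid and 10 of 11 neutrophil markers were found in those tumour 4 cells, with Ly6g at 0, and tumour 4 also had the most immune cells. Its neuron-like cells held the same markers at 1058 and 2287 CPM. Tumour 4 therefore stood apart, and for each comparison the number of the 34 genes past the threshold is also given without it.

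The motif core ACGTG was looked up in the 250 bases before each gene's start, on both strands (ACGTG and its complement CACGT), in the RefSeq windows of build GRCm38.p6. Of the 34 genes, 31 had at least 1 window, and 22 of their 45 windows (48.9%) held the motif, against 5444 of all 32851 windows (16.6%). The 6 windows below are shown because the comparisons turn on these genes: both genes of the lactate dehydrogenase pair, the hexokinase that differed most along the granule lineage, the lactate exporter of myeloid cells, and a pair of stress-response transcripts. Capitals mark the motif, read 5′ to 3′ on the gene's strand, and CACGTG counts on both strands. A match describes the letters and is not evidence of binding, and the Ldhb window with no match says only that these letters are not in it. Other forms of the core were not searched. The Ldhb window does hold GCGTG, which differs from ACGTG in the first base. Ldha had a second window, chr7:46846832-46847081, which held no match and is not shown. Gene positions given below are on the same build. The windows are chr6:82774455-82774704 (minus strand, Hk2), chr7:46845554-46845803 (plus strand, Ldha), chr6:142507958-142508207 (minus strand, Ldhb), chr11:120948817-120949066 (plus strand, Slc16a3), chr7:138909507-138909756 (minus strand, Bnip3) and chr10:59951771-59952020 (minus strand, Ddit4).
Hk2: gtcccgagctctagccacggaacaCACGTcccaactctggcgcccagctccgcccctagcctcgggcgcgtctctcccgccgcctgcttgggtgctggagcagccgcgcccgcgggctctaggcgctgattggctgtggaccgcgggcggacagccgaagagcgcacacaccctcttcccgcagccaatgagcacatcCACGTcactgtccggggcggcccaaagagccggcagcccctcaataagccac
Ldha: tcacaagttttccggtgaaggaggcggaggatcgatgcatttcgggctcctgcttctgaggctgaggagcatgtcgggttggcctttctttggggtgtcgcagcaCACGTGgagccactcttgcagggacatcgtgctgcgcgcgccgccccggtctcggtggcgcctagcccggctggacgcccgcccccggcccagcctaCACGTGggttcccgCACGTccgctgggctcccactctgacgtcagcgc
Ldhb: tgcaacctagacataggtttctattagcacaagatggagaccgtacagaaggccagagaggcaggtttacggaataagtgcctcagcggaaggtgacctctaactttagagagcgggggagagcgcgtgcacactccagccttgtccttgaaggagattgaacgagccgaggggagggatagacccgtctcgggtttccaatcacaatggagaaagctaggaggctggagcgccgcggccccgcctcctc
Slc16a3: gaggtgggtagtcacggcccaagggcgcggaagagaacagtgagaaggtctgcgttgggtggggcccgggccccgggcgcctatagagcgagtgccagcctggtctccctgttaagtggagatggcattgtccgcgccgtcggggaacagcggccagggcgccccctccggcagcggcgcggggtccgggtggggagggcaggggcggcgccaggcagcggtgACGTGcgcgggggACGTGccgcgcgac
Bnip3: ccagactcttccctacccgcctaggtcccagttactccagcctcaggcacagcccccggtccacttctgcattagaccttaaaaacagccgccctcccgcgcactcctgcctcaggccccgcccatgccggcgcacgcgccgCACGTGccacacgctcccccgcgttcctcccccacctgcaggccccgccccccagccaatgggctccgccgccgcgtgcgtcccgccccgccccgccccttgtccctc
Ddit4: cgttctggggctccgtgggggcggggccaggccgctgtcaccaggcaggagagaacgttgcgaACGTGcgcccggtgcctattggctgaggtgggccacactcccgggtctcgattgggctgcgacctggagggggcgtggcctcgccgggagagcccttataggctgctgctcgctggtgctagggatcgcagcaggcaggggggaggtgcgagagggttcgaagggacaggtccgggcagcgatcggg

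Across the cell classes, the 34 genes did not share a single order. Aldoc, the brain aldolase, had its highest class means in glia: it averaged 243 ± 157 CPM (SD, n = 3 tumours) in oligodendrocyte lineage-like, 83.1 ± 44.5 CPM (SD, n = 4, as for the classes below) in astrocyte-like and 7.31 ± 6.69 CPM in neuron-like cells. Pfkm, the muscle-type phosphofructokinase, averaged 44.0 ± 7.76 CPM in neuron-like and 4.60 ± 4.47 CPM in myeloid-like cells. Pfkp, the platelet-type enzyme of the same step, had the opposite order, at 5.84 ± 2.78 and 24.4 ± 10.4 CPM. Eno2, the enolase known as neuron-specific, gave only 64 UMIs in all 6489 cells and averaged 1.37 ± 0.707 CPM in the neuron-like class. Levels in CPM were not scaled by transcript length, so the level of a gene is compared across classes and not with that of another gene. The shares given for gene pairs are shares of UMIs, compared across classes alone. Aldoa, Tpi1, Gapdh, Pgk1, Pgam1, Eno1, Ldha, Ldhb and Bnip3l are known to have near-identical copies elsewhere in the genome. How reads shared with a copy were counted is not stated, so the levels of these genes are uncertain.

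**Figure D1:**
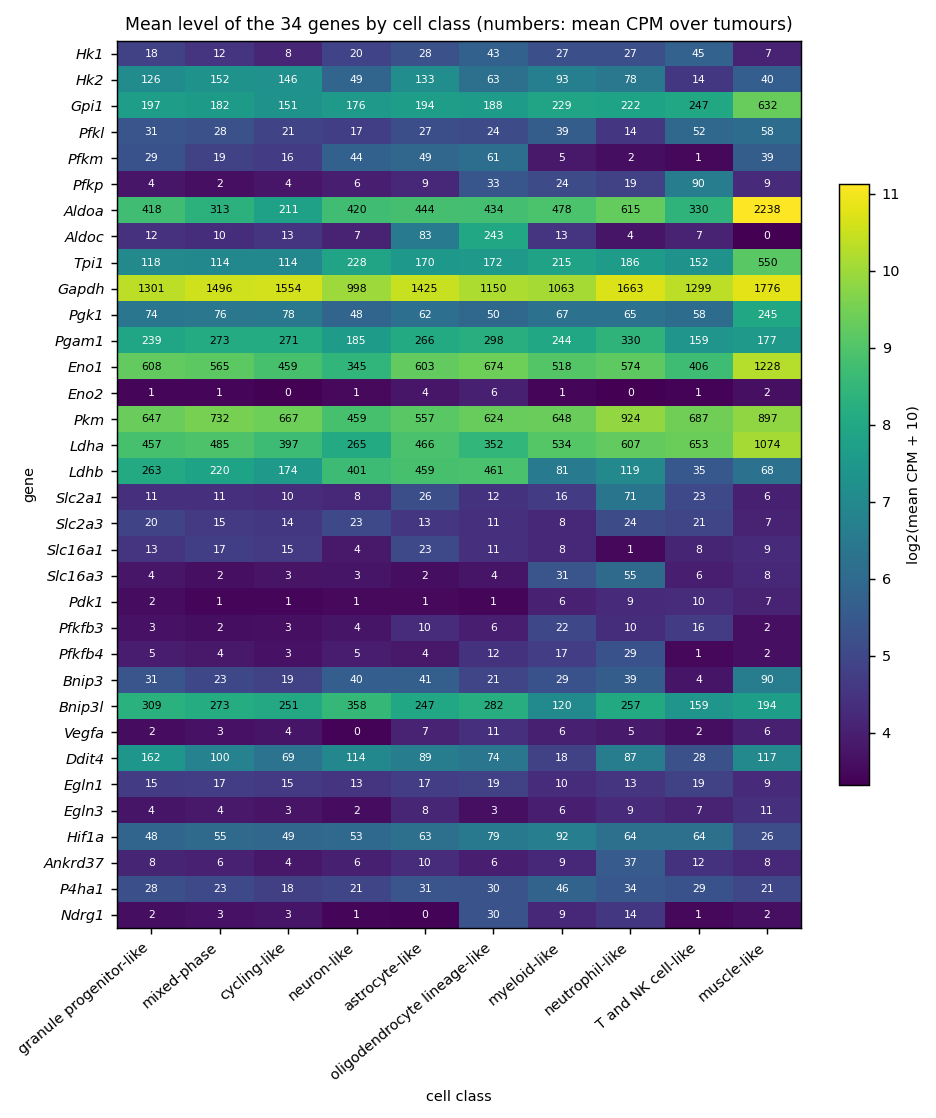
Mean level of each of the 34 genes (rows) in 10 cell classes (columns), coloured by log2(mean CPM + 10), with the mean CPM over the tumours that had at least 10 cells of the class printed in each box; the oligodendrocyte lineage-like column averages tumours 2 to 4, those of neutrophil-like cells and of T and NK cells average tumours 2 and 4, and the muscle-like column is tumour 1 alone. Read along a row, Hk2 has 146 CPM in cycling-like and 48.6 CPM in neuron-like cells, and Aldoc stands at 83.1 CPM in astrocyte-like cells.

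Along the granule lineage, neuron-like cells had less of the lower glycolytic enzymes and of Hk2 than the progenitor-like cells of the same tumours, and more of Tpi1, Ldhb, Pfkm and Aldoa. Of the 34 genes, 24 reached the mean of 10 CPM in either class that a test required, 7 were higher in neuron-like cells, 9 were lower and 8 did not pass (limma, Benjamini-Hochberg adjusted p under 0.05 over 7809 genes). The background was high, since 46.0% of all genes tested passed, 25.5% higher and 20.4% lower. The median difference of the 24 genes was -0.09 and that of all genes 0.06, both in log2(CPM + 10), the scale of every difference given here.

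Hexokinase, which traps glucose in the cell, differed in opposite directions between its genes. Hk2 (chr6:82725025-82774454) stood at 128, 83.4, 205 and 153 CPM in the progenitor-like cells of tumours 1 to 4 and at 50.7, 23.3, 75.6 and 44.6 CPM in their neuron-like cells. Every neuron-like value lay below every progenitor-like value, and the difference was -1.40 (SE 0.11), or 2.94-fold lower in mean CPM (adjusted p = 6.72e-08). Hk1 was at 12.9, 10.9, 12.8 and 10.7 CPM in progenitor-like and 15.5, 28.8, 12.1 and 23.4 CPM in neuron-like cells, so the neuron-like value was the higher in 3 of 4 tumours and the classes overlapped. The difference of 0.42 (SE 0.16) passed narrowly (adjusted p = 0.0389), but not without tumour 2 (0.26) or tumour 4 (0.33), nor in thinned cells (0.31). At the next committed step, Pfkm stood at 18.4, 20.6, 20.2 and 21.0 CPM in progenitor-like cells and 33.8, 48.4, 51.4 and 42.5 CPM in neuron-like cells, without overlap, a difference of 0.84 (SE 0.13). The liver-type phosphofructokinase Pfkl had the opposite order, at 26.2, 23.7, 27.5 and 24.2 CPM in progenitor-like and 11.3, 23.3, 18.1 and 17.0 CPM in neuron-like cells. Its classes did not overlap either (-0.38 (SE 0.14), adjusted p = 0.0365), though tumour 2 differed little and the call was lost without tumour 1 (-0.26) or tumour 3 (-0.37). Gpi1, the isomerase between both steps, did not pass, at 171 ± 10.4 CPM in progenitor-like and 176 ± 7.39 CPM in neuron-like cells.

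Of the enzymes that split and rearrange the sugar, Tpi1 was at 128, 85.6, 97.2 and 150.5 CPM in progenitor-like cells and 228, 217, 184 and 285 CPM in neuron-like cells. Its classes did not overlap, and triose phosphate isomerase was 1.98-fold higher in neuron-like cells (difference 0.94 (SE 0.10)). Aldoa, the aldolase found in most tissues, was higher by 0.54 (SE 0.09) in the same 4 tumours, at 401 to 467 CPM against 248 to 401 CPM, where the nearest values of both classes were almost equal. Aldoc averaged 7.31 CPM in neuron-like against 11.9 CPM in progenitor-like cells, and its difference of -0.33 (SE 0.15) did not pass (adjusted p = 0.0826).

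The enzymes that harvest energy from the split sugar were lower together in neuron-like cells. Gapdh averaged 1475 CPM in progenitor-like and 998 CPM in neuron-like cells (difference -0.55 (SE 0.07)). Pgk1, the first step that makes ATP, was at 158, 34.5, 37.0 and 76.1 CPM in progenitor-like and 111, 22.9, 16.6 and 42.5 CPM in neuron-like cells. Within each tumour the neuron-like value was the lower (difference -0.61 (SE 0.12)), although tumour 1 neuron-like cells exceeded the progenitor-like cells of every other tumour. Pgam1 (-0.51), Eno1 (-0.71) and the pyruvate kinase Pkm (-0.60) had the same direction in 4 of 4 tumours.

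At the end of the pathway the lactate dehydrogenase genes moved apart. Ldha (chr7:46842274-46855627) stood at 654, 436, 327 and 336 CPM in progenitor-like cells and 501, 238, 179.9 and 142 CPM in neuron-like cells, a difference of -0.81 (SE 0.10). Ldhb (chr6:142490249-142507957) stood at 147, 194, 243 and 249 CPM in progenitor-like cells and 252, 396, 482 and 474 CPM in neuron-like cells, a difference of 0.90 (SE 0.08). Both held in 4 of 4 tumours. The classes did not overlap for Ldhb, while for Ldha the neuron-like cells of tumour 1 exceeded the progenitor-like cells of every other tumour. Tumour 1 was the highest for Ldha and the lowest for Ldhb in either class. The lactate transporter Slc16a1 was at 15.4, 16.5, 18.1 and 11.1 CPM in progenitor-like and 8.45, 3.75, 3.02 and 2.12 CPM in neuron-like cells, without overlap (-0.83 (SE 0.15)). The neuron-like values rest on few UMIs, since Slc16a1 and Slc16a3 together gave only 11, 10, 2 and 4 there. The glucose transporters did not pass: Slc2a1 averaged 10.6 and 8.14 CPM, and the neuronal transporter Slc2a3 averaged 15.9 and 23.3 CPM (adjusted p = 0.0600).

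Among the hypoxia response genes, the mitophagy receptors Bnip3 and Bnip3l were higher in neuron-like cells. Bnip3 was at 37.1, 17.7, 20.9 and 16.3 CPM in progenitor-like and 40.8, 49.2, 33.3 and 38.2 CPM in neuron-like cells, so that tumour 1 progenitor-like cells overlapped the neuron-like range (0.64 (SE 0.15)). Bnip3l was at 218 to 316 CPM in progenitor-like and 295 to 416 CPM in neuron-like cells (0.38 (SE 0.08)). Ddit4, an inhibitor of mTORC1, Hif1a itself, the oxygen sensor Egln1 and the collagen hydroxylase P4ha1 did not pass, with differences between -0.16 and 0.17. Vegfa, Egln3, Ankrd37, Ndrg1, Pdk1, Pfkfb3, Pfkfb4, Slc16a3, Pfkp and Eno2 were below 10 CPM in both classes, or in the case of Pdk1 not listed in every table, and were not tested. Slc16a1 reached 10 CPM through progenitor-like cells alone, so its call is a description.

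In the wider pathway, Mif, a cytokine and hypoxia target, was lower in neuron-like cells (-1.21, 376 against 846 CPM), while Rcor2 (0.97) and Narf (0.83) were higher, and of the 18 other hypoxia targets tested 6 were higher and 4 lower. Of 9 HIF regulators only Egln2, a prolyl hydroxylase that tags the Hif1a protein, passed, and it was higher (0.62). Pgm2, which feeds sugar phosphates into glycolysis and glycogen, was higher (1.62), and Gyg was lower (-0.43), as 2 of 8 glycogen genes. Of 11 genes of pyruvate entry to mitochondria 3 were higher, among them the phosphatases Pdp2 (0.61) and Pdp1 (0.42), and Pdk2, a kinase that blocks that entry, was lower (-0.43, 3 of 4 tumours). Pgm2 and Pdp2 reached 10 CPM in neuron-like cells alone and Gyg and Pdk2 in progenitor-like cells alone, so these calls are descriptions too. Of 7 pentose phosphate genes only Tkt passed (-0.32), and of 5 further isozymes and transporters none (limma, 1 at an unadjusted p under 0.05). Without tumour 4, 15 of 23 tested glycolysis and hypoxia genes passed, 6 higher and 9 lower, against 41.7% of all genes. The median UMIs per neuron-like cell were 5435 against 8506 per progenitor-like cell in tumour 2 and 4763 against 7018 in tumour 3. With cells thinned to 4900 UMIs and shallower cells left out, 14 of 24 genes passed against 29.1% of all genes. This left out 145 neuron-like cells of tumour 2 and 67 of tumour 3. The thinned result thus covers the deeper cells only, and the part of depth in the other differences was not tested.

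**Figure D2:**
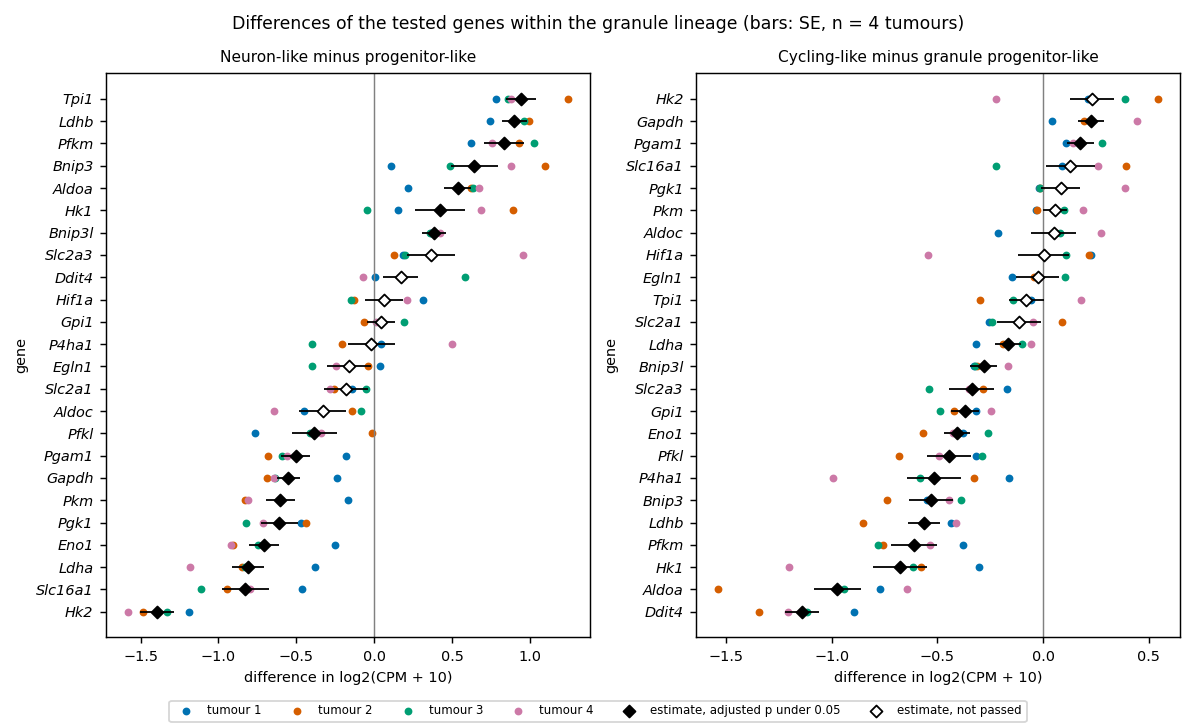
Difference in log2(CPM + 10) for each tested gene, neuron-like minus progenitor-like (left) and cycling-like minus granule progenitor-like (right), with black diamonds for the estimate and bars for its SE, open diamonds where the adjusted p was 0.05 or more, and coloured points for the 4 tumours. On the left Tpi1 and Ldhb lead at 0.94 and 0.90 and Hk2 is lowest at -1.40, and on the right Ddit4 and Aldoa are lowest at -1.14 and -0.97.

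Within the progenitors, dividing cells had less of many of these transcripts than granule progenitor-like cells, with the largest gaps at Ddit4 and Aldoa. Summed cycling markers stood at 5125 to 7655 CPM in cycling-like and 608 to 1047 CPM in granule progenitor-like cells. Of 24 tested genes 13 were lower in cycling-like cells, 2 were higher and 9 did not pass, against 31.9% of all 7544 genes, of which 12.7% were higher and 19.2% lower. The median difference of the 24 genes was -0.22 and that of all genes -0.07. Without tumour 4, 3 were higher and 13 lower of 23, against 36.0% of all genes in either direction.

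Ddit4 (chr10:59949675-59951770) stood at 182, 144, 149 and 174 CPM in granule progenitor-like cells of tumours 1 to 4 and 93.2, 50.7, 63.4 and 69.5 CPM in cycling-like cells. The classes did not overlap, and the gene was 2.34-fold lower in cycling-like cells (-1.14 (SE 0.08), adjusted p = 3.62e-08). Aldoa was at 541, 442, 380.3 and 308 CPM in granule progenitor-like and 313, 146, 193 and 194 CPM in cycling-like cells, lower in 4 of 4 tumours (-0.97 (SE 0.11)), although the cycling-like cells of tumour 1 stood slightly above the granule progenitor-like cells of tumour 4. Other early glycolytic enzymes showed the same order, among them Hk1 (-0.68), the phosphofructokinases Pfkm (-0.61) and Pfkl (-0.45), and Gpi1 (-0.37), each with no overlap between the classes. Hk1 reached 10 CPM in granule progenitor-like cells alone, so its call is a description. Gpi1 varied little between tumours, at 191, 211, 194 and 194 CPM in granule progenitor-like and 151, 155, 135 and 162 CPM in cycling-like cells. Hk2, the other hexokinase, did not pass, at 126 ± 47.8 CPM and 146 ± 50.7 CPM.

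The lower pathway was split. Eno1 was lower in cycling-like cells (-0.41 (SE 0.06), 922, 439.6, 469 and 601 against 706, 293, 389.9 and 445 CPM), with tumour 1 the highest of both classes. Gapdh, at 1196, 1204, 1114 and 1689 CPM in granule progenitor-like and 1234, 1378, 1306 and 2299.6 CPM in cycling-like cells, was higher in dividing cells (0.23 (SE 0.06)), and tumour 4 was the highest in either class. Pgam1 was also higher (0.18 (SE 0.06), adjusted p = 0.0407), at 279, 239, 206 and 231 CPM in granule progenitor-like and 302, 272, 252 and 256 CPM in cycling-like cells. The Gapdh call was lost without tumour 3 (0.23), and that of Pgam1 without tumour 1 (0.20), tumour 2 (0.18) or tumour 3 (0.14). Pgk1, Pkm, Tpi1 and Aldoc did not pass, with differences from -0.08 to 0.08. Ldhb was lower, with a difference of -0.57 (SE 0.08). Ldha was lower by a difference of -0.17 (SE 0.06) at an adjusted p of 0.0498, and that call was lost without tumour 1 (-0.11), tumour 2 (-0.16) or tumour 3 (-0.19) and when the median gene was set to a difference of 0 (-0.10). The neuronal glucose transporter Slc2a3 was lower (-0.34), but not past the threshold without tumour 2 (-0.35) or tumour 3 (-0.27), and Slc2a1 and Slc16a1 did not pass (-0.11 and 0.13).

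Of the remaining hypoxia genes, P4ha1 was at 31.7, 32.0, 26.6 and 20.5 CPM in granule progenitor-like and 27.3, 23.5, 14.5 and 5.29 CPM in cycling-like cells (-0.52 (SE 0.13)). The tumour 4 cycling-like value was the lowest. Bnip3 averaged 31.4 and 18.6 CPM (-0.53 (SE 0.11)), and Bnip3l 309 and 251 CPM (-0.28 (SE 0.06)). Hif1a and Egln1 did not pass, with differences of 0.00 and -0.03. The same 10 genes as in the neuron-like comparison were not tested.

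Among other hypoxia targets 7 of 18 were lower in cycling-like cells, with Rcor2 (-0.61), Insig2 (-0.53) and Plod1 (-0.49) the largest, and 2 were higher. Tceb1 (0.31) and Tceb2 (0.24), the elongin subunits of the ubiquitin ligase that destroys Hif1a, were the 2 of 9 HIF regulators to pass, both higher. Few genes passed in the other groups, all lower: the chaperone of lactate transporters Bsg and the glucose transporter Slc2a4 (-0.29 and -0.28, 2 of 5), Pgd of the pentose phosphate pathway (-0.35, 1 of 7) and the pyruvate dehydrogenase subunit Pdha1 (-0.22, 1 of 10). Median UMIs per cell were higher in cycling-like cells in tumours 1 to 3 (for example 10726 against 6804 in tumour 2) and lower in tumour 4 (6669.5 against 11524), where 216 of the 280 cycling-like cells came from a cluster with a median of 5474 UMIs. The direction of calls over all genes turned with the scaling, at 957 higher and 1451 lower here but 1269 higher and 1075 lower when centred on the median gene and 986 higher and 523 lower from mean log2 values per cell; of the 24 genes, 3 were then higher and 12 lower, and 2 higher and 8 lower.

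The share of each gene within a pair does not depend on scaling between classes. Ldha made up 81.7, 69.3, 57.4 and 57.5% of Ldha and Ldhb UMIs in progenitor-like cells of tumours 1 to 4 and 66.5, 37.5, 27.2 and 23.1% in neuron-like cells. The share was lower in neuron-like cells in 4 of 4 tumours, with means of 66.4% and 38.6%. Tumour 1 had the highest share in both classes, and the ranges overlapped. Hk1 held 9.15, 11.6, 5.88 and 6.53% of Hk1 and Hk2 UMIs in progenitor-like and 23.4, 55.2, 13.8 and 34.4% in neuron-like cells, with no overlap and means of 8.28% and 31.7%. Between granule progenitor-like and cycling-like cells, the Ldha share went from 61.6% to 68.3% and the Hk1 share from 14.0% to 5.51%, each in the same direction in 4 of 4 tumours. With 4 tumours the smallest p an exact two-sided sign-flip permutation test can give is 0.125, which all of these reached (adjusted p = 0.19 over 24 tests), so none could pass a threshold of 0.05.

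**Figure D3:**
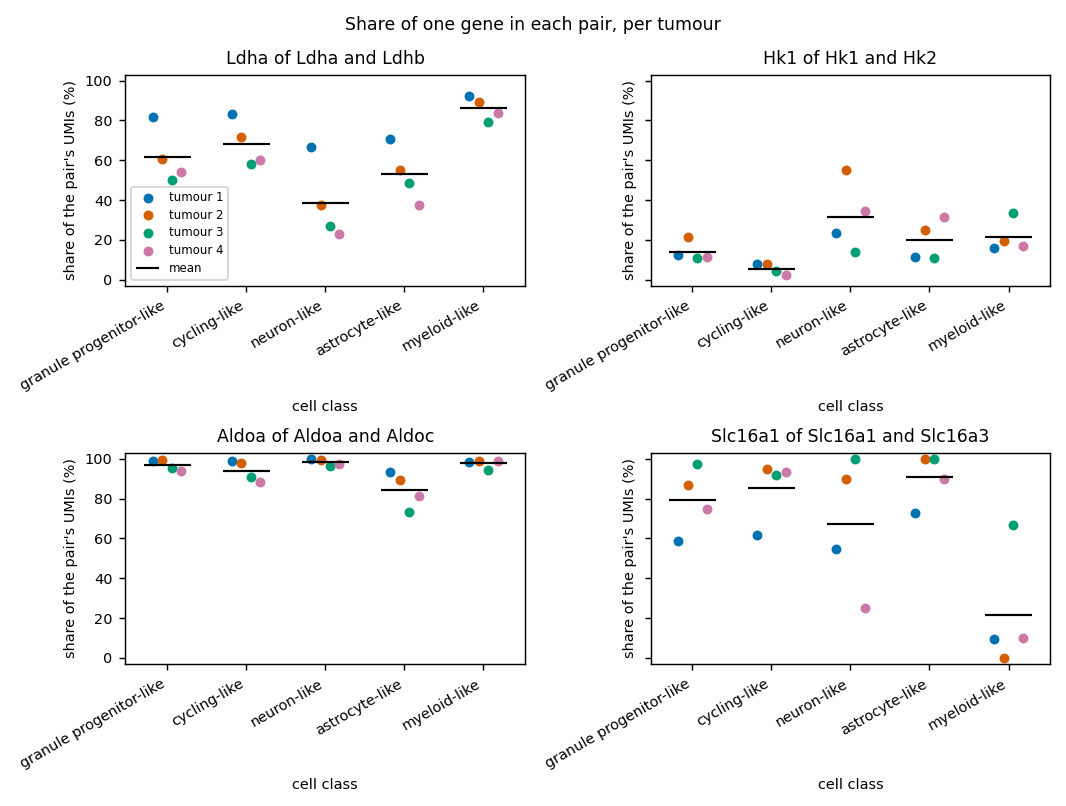
Share of the first gene in the summed UMIs of each of 4 gene pairs (percent, y axis) in 5 cell classes (x axis), with a point for each tumour and a line for the mean. The mean Ldha share is 38.6% in neuron-like and 68.3% in cycling-like cells, and the mean Slc16a1 share is 21.5% in myeloid-like cells, where the high tumour 3 value rests on 3 UMIs.

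Astrocyte-like cells carried more Aldoc and Ldhb than progenitor-like cells. Of 24 tested genes 3 were higher, none was lower and 21 did not pass, against 3.70% of all 7909 genes past the threshold, 2.55% higher and 1.15% lower. An unadjusted limma p under 0.05 was found for 9 of the 24. The share of all genes at that unadjusted p was not set beside this count, so it is not read as a trend. The median difference was 0.19 for these genes and -0.05 for all. The class held only 15, 15, 26 and 22 cells, with astrocyte markers at 5143 to 25317 CPM (566 to 1513 CPM in progenitor-like cells) and granule progenitor markers still at 837 to 3084 CPM. The same list, which holds Apoe, a gene macrophages are also known to express, stood at 24623 to 37519 CPM in myeloid-like cells, with 7 to 11 of the 12 markers found there against 12 in astrocyte-like cells. The leading gene of the astrocyte-like class was Ttr, a marker of choroid plexus. Aldoc (chr11:78323073-78327781) stood at 5.61, 3.31, 16.6 and 22.2 CPM in progenitor-like and 34.9, 59.0, 134 and 104 CPM in astrocyte-like cells. The classes did not overlap, with tumours 3 and 4 the highest of both, and the difference was 2.04 (SE 0.22), or 6.96-fold (adjusted p = 1.47e-04). In thinned cells the Aldoc difference was 1.27 and did not pass. Ldhb was at 209, 347, 465 and 816 CPM in astrocyte-like cells, each above the progenitor-like cells of its own tumour (0.97 (SE 0.15)). Aldoa was higher in 4 of 4 tumours (0.61 (SE 0.12), adjusted p = 0.0109), but not past the threshold without tumour 2 (0.52) or tumour 3 (0.65). Bnip3 (0.65, adjusted p = 0.0951) and Tpi1 (0.49, adjusted p = 0.0874) had the same sign in 4 of 4 tumours and did not pass. Hk1 averaged 28.5 against 11.8 CPM and Slc2a1, the glucose transporter of glia and vessels, 26.4 against 10.6 CPM, and neither passed, nor did Pfkm (difference 0.81). The Aldoa share of aldolase UMIs was 93.2, 89.2, 73.2 and 81.1% against 98.6, 98.7, 93.9 and 91.8% in progenitor-like cells, lower in 4 of 4 tumours.

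The other genes of the pathway that passed included the muscle-type glycogen phosphorylase Pygm (1.95, 42.9 against 1.61 CPM) and glycogenin Gyg (0.92), as 2 of 9 glycogen genes, all others not passing. Epas1, a second HIF subunit known from glia and vessels, was higher by 1.76 as 1 of 11 HIF genes, Mpc1, a carrier of pyruvate into mitochondria, by 0.68 as 1 of 10, and the transcription factor Bhlhe40 by 1.32 as 1 of 19 other hypoxia targets. Pygm, Epas1 and Bhlhe40 reached 10 CPM through astrocyte-like cells alone. The filter thus set the direction in which their means differ, and their calls are descriptions. None of 7 pentose phosphate genes (limma, 0 at an unadjusted p under 0.05) and none of 5 further isozymes (1 at an unadjusted p under 0.05) passed. In tumour 4, astrocyte-like cells also held myeloid and neutrophil markers at 1411 and 1778 CPM and the 4 ependymal and choroid markers at 18719 CPM (0 to 18.4 CPM in the other tumours), with Ttr and Foxj1 found and Tmem212 and Kl at 0, and the part of these cells or of their RNA in the result was not tested. Without tumour 4, 3 of 24 glycolysis and hypoxia genes passed against 2.09% of all genes, and without tumour 3, 2 of 25 against 0.712%.

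Myeloid-like cells carried Slc16a3, Pfkfb3 and Pfkp, which progenitor-like cells had at a few CPM, and less Ddit4, Ldhb, Bnip3l and Pfkm. Of 28 tested genes 10 were higher and 7 lower, against 67.1% of all 7770 genes, of which 13.4% were higher and 53.8% lower. Slc16a3, Pfkfb3, Pfkp and Pfkfb4 reached 10 CPM through the myeloid-like class alone, and Pfkm and Slc2a3 through the progenitor-like class alone. The filter thus set the direction in which their means differ, and their calls are descriptions. With no filter on low values 10 of 33 genes were higher and 7 lower, against 59.9% of all genes in either direction. The median of all genes was -0.55, so a gene at 0 stood 0.55 above the typical gene; with the median gene set to 0 the split was 16 higher and 4 lower, and over all genes 1936 higher and 1869 lower. Without tumour 3, with its 12 myeloid-like cells, 21 of 29 passed against 77.3% of all genes, and without tumour 4, 12 of 28 against 57.8%.

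Slc16a3, the lactate exporter of glycolytic cells, was at 8.82, 1.18, 1.34 and 1.59 CPM in progenitor-like and 51.7, 22.9, 11.3 and 39.3 CPM in myeloid-like cells. The classes did not overlap (1.57 (SE 0.23)). Pfkfb3 encodes an enzyme that makes the strongest known activator of phosphofructokinase. It was at 3.41, 1.92, 2.69 and 2.38 CPM in progenitor-like and 23.7, 32.5, 11.3 and 21.2 CPM in myeloid-like cells (1.31 (SE 0.22)). Its relative Pfkfb4 averaged 3.90 and 16.9 CPM, with no UMI in the 12 myeloid-like cells of tumour 3 (0.79 (SE 0.30)). The Pfkfb4 call was lost without tumour 1 (0.75), tumour 2 (0.60) or tumour 4 (0.61). At phosphofructokinase itself Pfkp was at 1.60, 6.46, 3.67 and 2.18 CPM in progenitor-like and 36.6, 24.1, 11.3 and 25.7 CPM in myeloid-like cells (1.31 (SE 0.24)), while Pfkm was at 18.4, 20.6, 20.2 and 21.0 CPM and 2.15, 2.41, 11.3 and 2.52 CPM (-1.08 (SE 0.21)). Neither gene's classes overlapped, but the tumour 3 myeloid-like value of 11.3 CPM is 1 UMI for Pfkm, Pfkp, Slc16a3 and Pfkfb3 alike. Hk1 (0.64), Aldoa (0.70), Tpi1 (0.83), Ldha (0.30), Hif1a (0.71) and P4ha1 (0.85) were higher. The Hk1 call was lost without tumour 1 (0.67), tumour 2 (0.78) or tumour 3 (0.34), and that of Ldha without tumour 1 (0.32), tumour 2 (0.32) or tumour 4 (0.27).

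Ddit4 was at 128, 76.4, 86.6 and 115 CPM in progenitor-like and 36.6, 15.6, 11.3 and 10.1 CPM in myeloid-like cells, 5.50-fold lower in mean CPM and without overlap (-2.03 (SE 0.20)), with 1 UMI in tumour 3 myeloid-like cells. Ldhb was at 64.6, 61.4, 113 and 86.4 CPM and Bnip3l at 102 to 131 CPM in myeloid-like cells, below every progenitor-like value (-1.26 (SE 0.14) and -1.11 (SE 0.15)). Ldha accounted for 92.2, 89.3, 79.2 and 83.5% of lactate dehydrogenase UMIs, higher than in progenitor-like cells in 4 of 4 tumours. Hk2 was lower (-0.56), as were Gapdh (-0.44) and Slc2a3 (-0.51). When the median gene was set to 0 the last pair turned to 0.087 and 0.017 and Hk2 stood at -0.03, none past the threshold. The Hk2 call was also lost without tumour 4 (-0.41), that of Gapdh without tumour 2 (-0.42) or tumour 4 (-0.28), and that of Slc2a3 without tumour 1 (-0.52), tumour 2 (-0.47) or tumour 4 (-0.52). Pfkl, Gpi1, Bnip3, Slc2a1, Eno1, Aldoc, Pkm, Pgam1, Pgk1, Egln1 and Slc16a1 did not pass, with differences from -0.62 to 0.43. Eno2, Pdk1, Vegfa, Egln3, Ankrd37 and Ndrg1 were not tested. Granule progenitor markers in myeloid-like cells stood at 108, 265, 497 and 68.5 CPM, with 8 to 11 of the 12 markers found, and their part in these values was not tested.

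In the wider pathway, glycogenin Gyg was higher in myeloid-like cells (1.99), among 8 glycogen genes with 2 higher and 2 lower. Pgd (1.10) and Taldo1 (1.03) of the pentose phosphate pathway were higher, as 2 of 7. Of 10 genes of pyruvate entry to mitochondria 8 were lower, among them Pdha1 (-1.31), Pdp1 (-0.84) and Pdhx (-0.80), at a list median of -0.71 against -0.55 for all genes. Among 20 other hypoxia targets 4 were higher, with Hmox1 (2.67) and Bhlhe40 (2.36) the largest, and 10 lower, led by Rcor2 (-2.53). Of 9 HIF regulators 4 were lower, led by Tceb1 (-1.03), and of 7 further isozymes and transporters Bpgm (-1.15) and Slc2a4 (-1.10) were lower and Slc16a7 (0.90) higher. Of the genes named here, Hmox1, Bhlhe40 and Slc16a7 reached 10 CPM in myeloid-like cells alone and Pdp1 and Slc2a4 in progenitor-like cells alone, and their calls are descriptions.

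**Figure D4:**
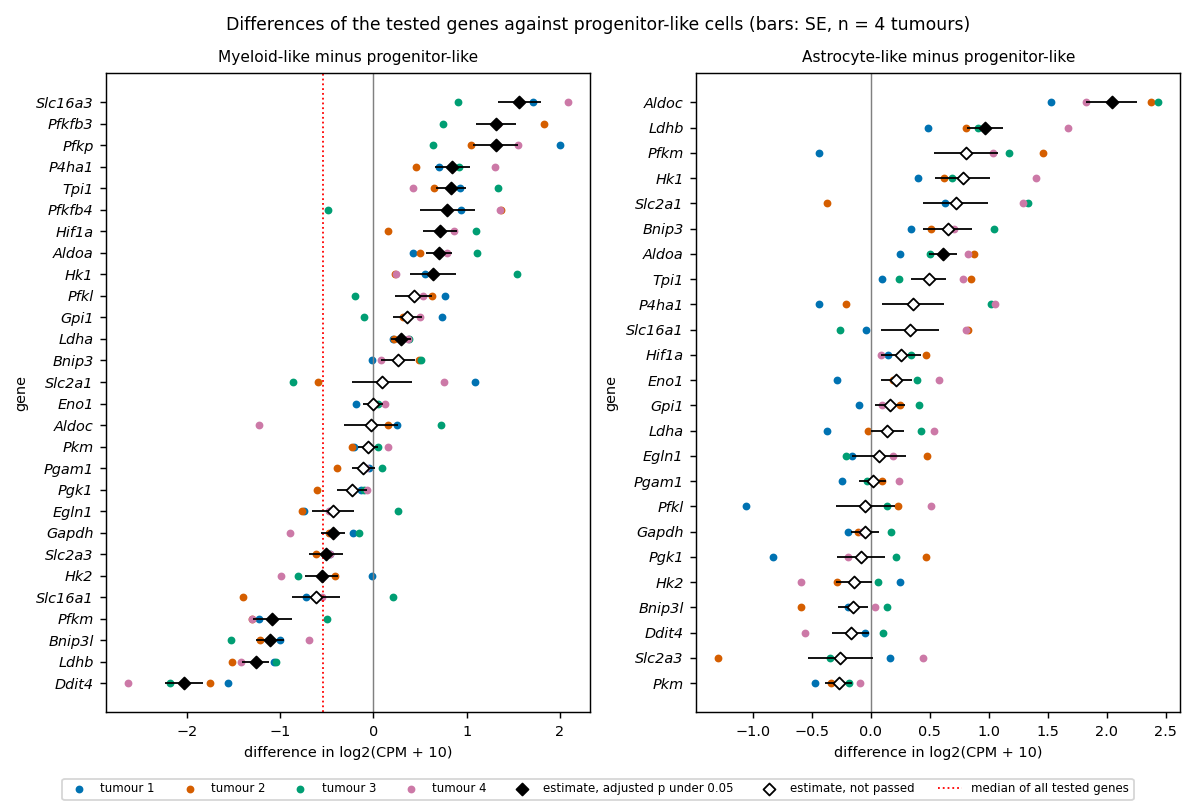
Difference in log2(CPM + 10) for each tested gene, myeloid-like minus progenitor-like (left) and astrocyte-like minus progenitor-like (right), with diamonds for the estimate, bars for its SE, open diamonds where the adjusted p was 0.05 or more and coloured points for the 4 tumours. Slc16a3, tested through its myeloid-like level alone, leads at 1.57 and Ddit4 is lowest at -2.03 on the left, where the dotted line marks the median of all genes at -0.55, and Aldoc stands apart at 2.04 on the right.

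Neutrophil-like cells were nearly all from tumour 4 (379 cells, against 4, 12 and 0 in tumours 1 to 3), and the 12 cells of tumour 2 held granule progenitor markers at 2011 CPM, so no test was made. In tumour 4, the glucose transporter Slc2a1 was at 115 CPM in neutrophil-like and 23.6 CPM in myeloid-like cells. Slc16a3 was at 101 and 39.3 CPM, Pfkfb4 at 49.5 and 26.3 CPM, and Ankrd37, a HIF target, at 46.4 and 14.5 CPM. Egln3, the hypoxia-induced prolyl hydroxylase, was at 18.1 and 3.15 CPM, and the stress-response gene Ndrg1 at 27.7 and 10.3 CPM. Pdk1, which closes pyruvate entry to mitochondria, was at 18.1 and 8.62 CPM. These 7 genes were chosen after their values were seen, and of all 34 genes 25 had the higher level in the neutrophil-like cells of this single tumour and 9 the lower. The share over all genes was not determined, so this count is not read as a trait of the 34 genes. In tumour 4 the neutrophil-like class had a median of 4014 UMIs per cell against 10352.5 in the myeloid-like class, and the difference had no replicate check. Ldhb (42.8 against 86.4 CPM) and Slc16a1 (2.41 against 4.42 CPM) were lower, as were Hk2 (53.7 against 72.1 CPM) and Pfkl (18.1 against 39.3 CPM).

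Other small classes are described by values alone. In the 16, 32 and 39 oligodendrocyte lineage-like cells of tumours 2 to 4 Aldoc was at 423, 172 and 135 CPM, in the same order as the summed markers of that lineage, at 21773, 5839 and 2523 CPM. Astrocyte markers in these cells had that order too, at 6037, 3782 and 3721 CPM, so the values do not tie Aldoc to either set. T and NK cell-like cells of tumours 2 and 4 had Pfkp at 102 and 77.3 CPM and Hk1 at 46.3 and 43.4 CPM, from 11 and 160 cells. The dendritic cell-like cells of tumour 4 had Pfkfb3 at 49.2 CPM and Ndrg1 at 47.8 CPM, from 59 cells. The muscle-like cells of tumour 1, 51 in number, had Aldoa at 2238 CPM, Eno1 at 1228 CPM, Ldha at 1074 CPM, Gpi1 at 632 CPM and Tpi1 at 550.1 CPM. The progenitor-like cells of the same tumour had these genes at 401, 791, 654, 166 and 128 CPM, each lower than in the muscle-like cells. Other genes had the opposite order, among them Hk2 and Ldhb, at 40.3 and 67.6 CPM in muscle-like cells. The 34 genes were not counted by direction. Besides muscle markers at 7354 CPM, the muscle-like cells held neuron markers at 2452 CPM.

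Whether single tumour cells carried several hypoxia transcripts at once was asked with 5 index genes, Vegfa, the vessel growth factor, Bnip3, Ankrd37, Egln3 and Ndrg1, in cells thinned to 4900 UMIs. Cells with fewer UMIs were left out. Only 17, 8, 5 and 3 progenitor-like cells of tumours 1 to 4, or 3.59%, 0.455%, 0.675% and 0.777%, had UMIs of at least 2 of the 5, too few for a test. Among neuron-like cells the shares were 0%, 0.775%, 0% and 0%. In tumour 4, 7.59% of 79 neutrophil-like cells and 3.64% of 412 myeloid-like cells did. Thinning had left out 300 neutrophil-like and 52 myeloid-like cells of that tumour. The neutrophil-like share thus covers only the deepest cells of its class, and the classes are not compared. Since free RNA can give UMIs in any cell, these shares are not read as expression. A comparison added after the data had been seen set progenitor-like cells with at least 1 index gene (97, 278, 97 and 42 cells) against those with none (376, 1479, 644 and 344 cells), with the index genes left out of the test. No gene passed: limma called 0 of 7452 genes (0.00%) and 0 of 23 glycolysis and hypoxia genes, of which 6 had an unadjusted p under 0.05. Nor did any of the other pathway lists hold a gene that passed (an unadjusted p under 0.05 was found for 2 of the further isozymes and transporters, 2 genes of pyruvate entry, 1 HIF regulator and 5 other hypoxia targets). The largest was Aldoa, at 337, 266, 238 and 240.3 CPM in cells with none and 814, 303, 364 and 330.4 CPM in cells with at least 1, higher in 4 of 4 tumours and most in tumour 1 (0.62 (SE 0.11), adjusted p = 0.13). Ldha (0.34) and Ddit4 (0.28) had the same sign in 4 of 4 tumours, and Pfkl (0.51), Pgk1 (0.39), Tpi1 (0.34), P4ha1 (0.28), Gpi1 (0.17) and Pgam1 (0.15) in 3 of 4. Only genes with a positive difference are named here, and none of them passed. The median was 0.12 for the 23 genes and -0.01 for all. The share of all genes at an unadjusted limma p under 0.05 in this fit was not set beside the counts above. Neither those counts nor the differences named are therefore read as a trend. Granule progenitor-like cells made up 38.1%, 36.0%, 37.1% and 31.0% of the first group against 31.4%, 27.2%, 25% and 27.6% of the second, a difference whose part was not tested. Without tumour 2, Aldoa passed, as 1 of 23 genes and as 1 of all 7556 genes tested. Without tumour 4, limma called 0 of 7527 genes, of which 399 had an unadjusted p under 0.05.

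The tumours differed from each other in several of these genes, described here without a test because they form 1 group. In progenitor-like cells, the gap between the highest and the lowest tumour was above the 90th percentile of all 7188 genes with a mean of at least 10 CPM (0.82 on the log2(CPM + 10) scale) for 6 of 24 genes, and the median gap was 0.61 for the 24 and 0.46 for all. The 6 were Pgk1 (1.92), Aldoc (1.27), Hk2 (1.21), Eno1 (1.06), Ldha (0.98) and Bnip3 (0.84). Tumour 1 was the highest for 4 of them, all but Aldoc and Hk2. Pgk1 (chrX:106187100-106203699) was at 158, 34.5, 37.0 and 76.1 CPM in progenitor-like, 111, 22.9, 16.6 and 42.5 CPM in neuron-like and 143, 19.3, 33.9 and 72.1 CPM in myeloid-like cells. Tumour 1 was the highest and tumour 4 the second in each of these classes. Eno1 and Ldha were also highest in tumour 1 in all 3 classes, while Hk2 was lowest in tumour 2 in all 3. At the other end, Pfkm (0.13), Hk1 (0.15), Pfkl (0.15) and Gpi1 (0.18) varied little between the progenitor-like cells of the 4 tumours. Of the 24 genes, 12 had the same highest tumour in progenitor-like and neuron-like cells, and 6 in progenitor-like, neuron-like and myeloid-like cells. The same counts over all genes were not made, so these are not read as a trait of the 24 genes. In myeloid-like cells 11 of the 24 were highest in tumour 3, which had only 12 such cells. Tumour 1 also had the deepest cells, and the parts of depth and of RNA shared between cells of 1 library were not tested.

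**Figure D5:**
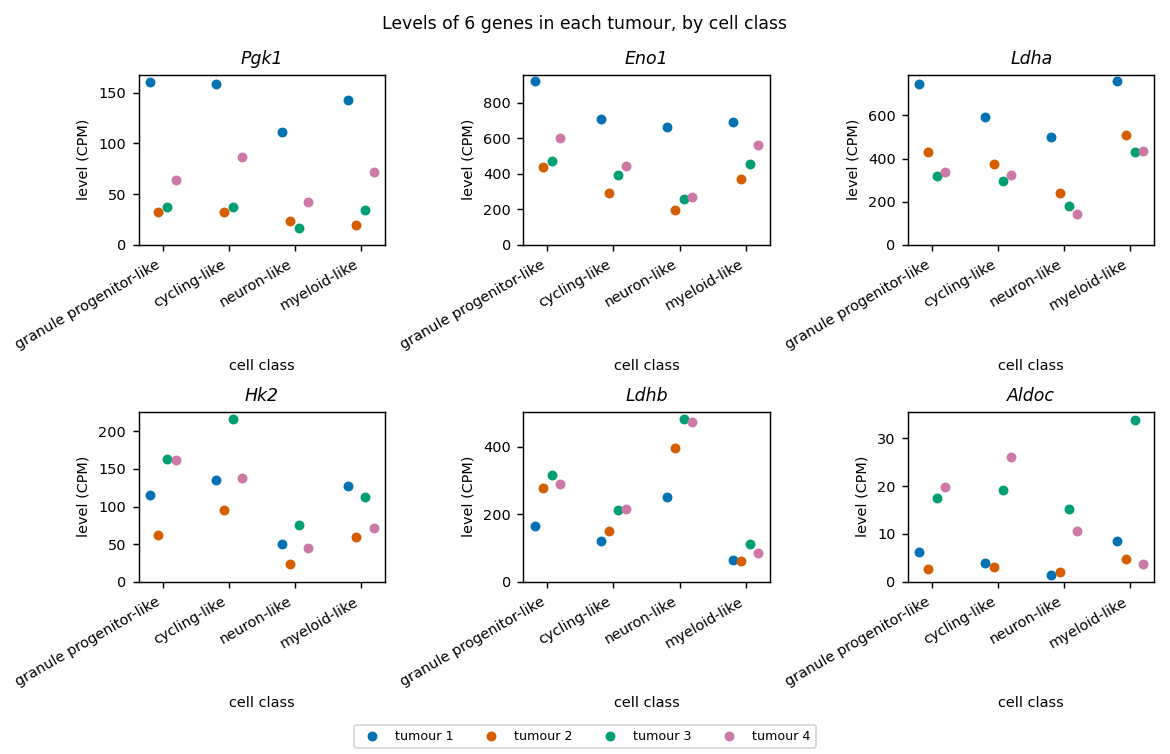
Level in CPM (y axis, from 0) of Pgk1, Eno1, Ldha, Hk2, Ldhb and Aldoc in 4 cell classes (x axis), with 1 point for each tumour. Tumour 1 is the highest for Pgk1, Eno1 and Ldha in each class drawn (Pgk1 at 158 CPM in cycling-like cells), and it is the lowest for Ldhb except in the myeloid-like class.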

How the data were processed

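Single-cell RNA libraries of 4 tumours of 1 group were analysed. The authors deposited log2 values per gene and cell. Undoing the log and the added 1 left whole multiples of a single step in each cell (100% of values within 1e-06 of a whole number), from which UMI counts were recovered. Per the submitters' processing notes, Cell Ranger, Seurat and mm10 were used, with neither roles nor versions given. Tables of tumours 2 to 4 held 13622 to 15359 genes, each seen in at least 5 cells, that of tumour 1 held 33219, and 13149 genes were shared.

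A filter of 500 genes or more and 10% mitochondrial UMIs or less removed none of 6509 cells. The Scrublet function of scanpy 1.11.5 called 20 doublets, which were removed, where 100 were expected. Clusters came from scanpy and leidenalg 0.10.2 (1000 variable genes per tumour, 30 components, 15 neighbours, resolution 1; components and graph weights rounded to 3 and 4 decimals), in a first step over all cells and a second over the granule lineage, with 121 genes of the lists kept out. Naming thresholds were set with the clusters in view. UMIs were summed per tumour and class, given as CPM, and tested as log2(CPM + 10) with limma 3.58.1 (R 4.3.3; statmod 1.5.0), using a variance trend and robust moderation, tumour as block, Benjamini-Hochberg adjusted p threshold 0.05. A tumour entered with at least 10 cells of each class, and 3 tumours were needed. Genes in all 4 tables with a mean of at least 10 CPM in either class were tested, leaving out 1658 clustering genes and the markers. The block rests on both classes coming from the same tumour. The log pseudocount shrinks differences of low genes, and folds are ratios of mean CPM. Script steps were tested on simulated data.

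The members, lists and tests were chosen with earlier results of these data known. Named were members past the threshold with the same sign in every tumour, largest first; members of the same step that did not pass; and up to 3 genes of each other list, of which 1 is not reported here. Hk1 in neuron-like and Pfkfb4 in myeloid-like cells, with 3 of 4 tumours, Pdk2, and the small classes were named after their values were seen. Alternatives were a pseudocount of 1, no filter, mean log2 per cell, thinned cells, centring on the median gene, resolutions 0.5 and 2, removal of the expected doublets, no block and each tumour left out. The comparison of cells with at least 1 index gene was added after seeing the data. Promoter windows and positions are from RefSeq, GRCm38.p6; matching was by symbol.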

Additional observations from a re-analysis of the deposited data

Results flagged for a closer look

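In 7 of 140 groups of 4 tumours examined, 1 tumour stood far from the other 3, and chance alone gives about 1 in 20. Tumour 4 was high for Gapdh in granule progenitor-like cells (1689 CPM, others 1114 to 1204) and in cycling-like cells (2299.6 CPM, others 1234 to 1378). Tumour 1 was high in neuron-like cells for Aldoa (467 CPM, others 401 to 407) and for Eno1 (663 CPM, others 195 to 265). Tumour 3 was low for Pgam1 in mixed-phase cells (226 CPM, others 285 to 292), high for Bnip3l in its 26 astrocyte-like cells (344 CPM, others 207 to 223) and high for Aldoc in its 12 myeloid-like cells (33.9 CPM, others 3.79 to 8.62, from 3 UMIs).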

How the results depend on the processing

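The number of the 34 genes past the threshold in the neuron-like comparison (16) was 9 without the replicate block and 15 with any 1 tumour left out, and the count over all genes (3589) was 2271 in thinned cells, 1806 without the block and 2616 to 3449 with 1 tumour left out. In the cycling-like comparison the 15 genes became 4 without the block and 11 to 16 with 1 tumour left out; over all genes 2408 became 1509 with mean log2 values per cell, 1453 in thinned cells, 320 without the block and 1495 to 2749 with 1 tumour left out (1495 without tumour 3). In the astrocyte-like comparison the 3 genes became 8 with mean log2 values per cell, 1 in thinned cells, at resolution 0.5 and without the block, and 2 to 4 with 1 tumour left out. Over all genes 293 became 94 with a pseudocount of 1, 158 with no filter, 854 with mean log2 values per cell, 130 in thinned cells, 11 at resolution 0.5, 67 without the block and 56 to 259 with 1 tumour left out (182 without tumour 2, 56 without tumour 3, 166 without tumour 4). In the myeloid-like comparison the 17 genes and 5217 of all genes stayed within 1.5 times under each setting (12 to 21 and 4249 to 5877 with 1 tumour left out), and Gapdh and Slc2a3 reversed to 0.087 and 0.017 when centred. For cells with index genes, 0 became 0 to 1 with 1 tumour left out, for these genes and over all genes (1 without tumour 2). Why the block and these settings changed the counts was not tested, except that fewer samples or cells entered where tumours were left out or cells thinned. Over all genes, mean log2 values turned the neuron-like split from 1993 higher and 1596 lower to 1134 and 1966, centring gave 1732 and 1879, and for astrocyte-like cells mean log2 values gave 266 higher and 588 lower and thinned cells 65 and 65, against 202 and 91. Of 663 recomputed values for 51 named results, 564 kept direction and side of the threshold, 97 kept direction only (24 without the block, 30 with 1 tumour left out) and 2 reversed. The threshold was never lost for 21 results. Among them were Hk2, Tpi1, Ldhb, Pfkm and Aldoa in neuron-like, Ddit4 and Aldoa in cycling-like and Ldhb and Ddit4 in myeloid-like cells. The 21 also hold Slc16a1 in neuron-like and Slc16a3, Pfkfb3, Pfkp and Pfkm in myeloid-like cells. These reached 10 CPM through 1 class alone, so keeping the threshold adds no support and their calls stay descriptions. Of 96 recomputed pair shares 94 stayed within 1 SD. In thinned cells the Slc2a1 share, cycling-like minus granule progenitor-like, moved from 5.18 to -5.43 points, and the Ldha share, astrocyte-like minus progenitor-like, from -13.4 to -8.14 points. Alternatives were not run for neutrophil-like cells or for cells with 2 index genes, which had no test. The astrocyte-like class and tumour 3's myeloid-like cells held 12 to 26 cells per tumour, and the effect of free RNA was not measured.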
